A study of Mus musculus with 13 samples.

Results

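The 10 LCE1 genes Lce1a1, Lce1a2, Lce1b, Lce1c, Lce1d, Lce1e, Lce1f, Lce1g, Lce1h and Lce1i of the mouse were followed in RNA of melanoma cells treated with an inhibitor of RNA editing. They were 10 of the 54532 genes of the count table. They were taken as the members of the LCE1 cluster by symbol, and the cluster was selected on measured values: it was chosen because Lce1g was higher with ADAR1i-124 than with DMSO in total RNA and in J2 precipitates. The values of all members in those 2 comparisons are therefore a description. Reads came mainly from Lce1g and Lce1h, while 4 members, Lce1a1, Lce1b, Lce1c and Lce1i, had 0 reads in all 12 libraries used.

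The study addressed what an inhibitor of the editing enzyme ADAR1 does to double-stranded RNA in YUMM1.7 cells, a mouse cutaneous melanoma line whose genotype is labelled WT in every library. Total RNA, RNA precipitated with J2, an antibody to double-stranded RNA, RNA precipitated with Z22, an antibody to the Z conformation, and RNA precipitated with control IgG were sequenced after removal of ribosomal RNA. The groups were DMSO, the solvent, ADAR1i-124 at 10 μM for 12 h, 5-AZA-CdR, an inhibitor of DNA methylation, at 1 μM for 72 h, and the combination, in which the 72 h of 5-AZA-CdR at 1 μM came before 12 h of ADAR1i-124 at 10 μM. What the cells of the IgG library had received is not given in the sources used here. Each condition had 1 library, so no difference between conditions has a replicate check, and the only test was of Z22 against J2 over the 4 treatments. The 12 libraries comprised 3 of total RNA, 4 of J2, 4 of Z22 and 1 of IgG. The total RNA library of the combination was left out because its reads follow the other strand, and it held 0 reads of the members among 1245894.

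Late cornified envelope genes encode small proteins rich in glycine and cysteine that are crosslinked by transglutaminases into the cornified envelope, the protein shell of dead cells at the skin surface. The genes lie next to each other in the epidermal differentiation complex, together with genes for small proline-rich proteins, loricrin, involucrin and S100 proteins, and they are known from late stages of keratinocyte differentiation. Melanoma cells derive from melanocytes, which do not form a cornified envelope. ADAR1 converts adenosine to inosine in double-stranded RNA.

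On chromosome 3 of GRCm38, the members spanned 132 kb, from 92646535 to 92778899. Each had 2 exons, of which 1 was coding, and all but Lce1c lay on the minus strand. Lce1g (ENSMUSG00000027919.5) lay at 92750148 to 92752338 with 925 exonic bases, Lce1h (ENSMUSG00000049593.8) at 92763215 to 92765065 with 706 and Lce1f (ENSMUSG00000042124.5) at 92718685 to 92720350 with 728. No annotated gene overlapped a member on either strand. The members resemble each other, which matters for reads that could map to several of them. The transcript of Lce1g was 58.5% to 69.1% identical to those of the other 9 members, and its longest exact run shared with one of them was 113 bases, with Lce1e. No window of 150 bases of any member occurred in another, while 16.3% of the windows of 50 bases of Lce1g did. Reads from short shared stretches could therefore have been split or dropped by the counting, whose handling of such reads is not given in the sources used here.

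The 250 bases before the gene start are shown for Lce1g and Lce1h, the members with the most reads, and for Lce1i, the member next to Lce1h, which had no read. The sequences are those of RefSeq on GRCm38.p6, in which 9 of the 10 members were matched, all but Lce1f. The capitals mark ATAAAAGG, a TATA-like run of letters chosen after the sequences had been looked at.
Lce1g (chr3:92752339-92752588, minus strand): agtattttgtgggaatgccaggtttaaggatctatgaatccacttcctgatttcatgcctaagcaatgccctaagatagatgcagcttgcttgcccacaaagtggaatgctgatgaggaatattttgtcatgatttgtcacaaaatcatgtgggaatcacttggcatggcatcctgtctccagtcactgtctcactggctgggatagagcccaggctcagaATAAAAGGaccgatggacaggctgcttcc
Lce1h (chr3:92765066-92765315, minus strand): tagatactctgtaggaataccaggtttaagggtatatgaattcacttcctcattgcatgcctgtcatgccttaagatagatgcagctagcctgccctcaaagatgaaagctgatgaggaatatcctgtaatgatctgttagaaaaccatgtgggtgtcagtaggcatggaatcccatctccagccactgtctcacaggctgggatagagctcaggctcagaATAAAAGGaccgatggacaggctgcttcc
Lce1i (chr3:92778900-92779149, minus strand): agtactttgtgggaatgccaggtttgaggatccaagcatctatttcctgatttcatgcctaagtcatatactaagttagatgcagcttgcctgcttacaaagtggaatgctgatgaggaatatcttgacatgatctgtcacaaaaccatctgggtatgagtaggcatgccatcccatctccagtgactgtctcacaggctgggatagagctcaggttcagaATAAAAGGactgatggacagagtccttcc

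The 3 windows were alike over their whole length: Lce1g was 84.5% identical to Lce1h and 85.6% to Lce1i. Counted back from the gene start to the first mismatch, Lce1g and Lce1h were identical over 39 bases, and Lce1i matched either over 5. Such a run ends at a single mismatch, so it does not measure the likeness of the stretch beyond it. ATAAAAGG stood 29 bases before the start in 7 of the 9 windows, including those of the silent genes Lce1c and Lce1i, and on either strand in 1.54% of the 32851 promoters of the same length. TATAAA was in 1 of 9 windows, that of Lce1d, against 12.4% of all promoters. TGANTCA, the letters of the AP-1 site, was in 0 of 9 windows against 6.75%, and TGANNNNGC, the core of the antioxidant response element, was in Lce1d, Lce1e and Lce1i against 35.2% of all promoters. Both strands were searched, TATAAA and ATAAAAGG can overlap, and a match is a description of letters only. The windows with ATAAAAGG were those of Lce1a2, Lce1c, Lce1d, Lce1e, Lce1g, Lce1h and Lce1i, while Lce1a1 and Lce1b lacked it. Lce1a2, Lce1d and Lce1e had only 5, 5 and 3 reads over the libraries. The matches were therefore not set against the reads of the members.

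Reads are given as counts and as CPM, the count scaled to a library total of 1000000 counted reads. Intervals in parentheses are exact 95% intervals from the counts, which cover counting error only: no molecular tags are described for these reads, so copies of 1 molecule can be counted more than once. A count of 3 was taken as the floor, which lay between 0.0868 and 0.367 CPM in the 12 libraries. A member was called higher or lower past 4-fold on the log2(CPM + 0.5) scale, provided that its mean over the compared libraries reached 1 CPM. Only Lce1g and Lce1h reached that mean in any comparison given here, so the other 8 members entered no count of calls. Library totals ran from 8167960 to 34571822 counts. Gm42418 took 34.9% of the counts of the Z22 DMSO library and 10.6% to 18.9% of the other precipitated libraries, and that library also had the fewest detected genes, 14899. With 1 library per condition, no comparison of a treatment with DMSO in Z22 or in total RNA could be given without the DMSO library concerned.

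Lce1g held 2171 reads over the 12 libraries, Lce1h 260 and Lce1f 22, and the other members 5 or fewer. Of these, Lce1a2 had 4 reads in total RNA with ADAR1i-124 and 1 in Z22 with the combination. Lce1d had 1 read in Z22 with 5-AZA-CdR, 3 with the combination and 1 in IgG. Lce1e had 1 read in each of 3 libraries, total RNA with ADAR1i-124, total RNA with 5-AZA-CdR and Z22 with the combination. In total RNA with ADAR1i-124 the floor of 3 counts stood at 0.170 CPM and the exact interval of 0 reads ended at 0.209 CPM, so members at 0 reads were not detectable at this depth. In that library Lce1g alone made up 88.9% of the 1561 member reads. Over exon length the order in that library was the same, with 85.2 CPM per kb for Lce1g, 12.1 for Lce1h and 1.40 for Lce1f.

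**Figure D1:**
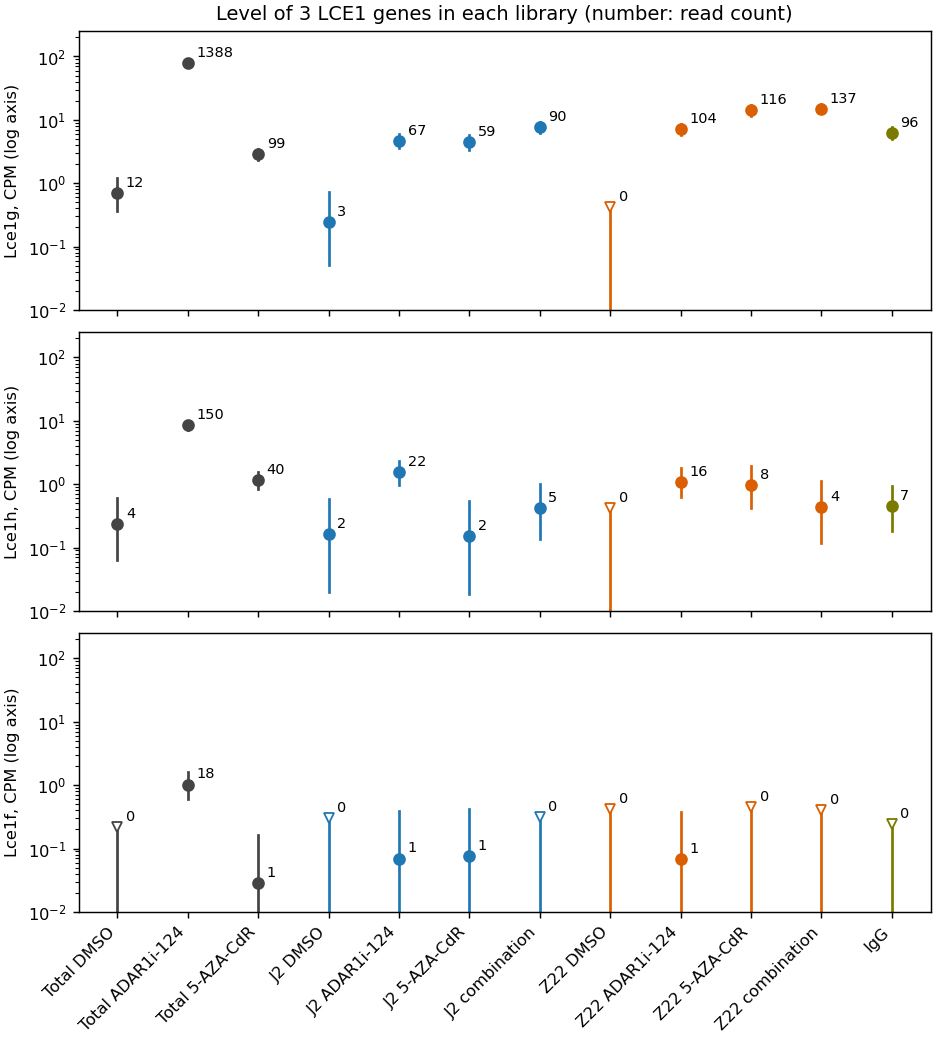
CPM of Lce1g, Lce1h and Lce1f on a log axis in each of the 12 libraries, with the read count beside each point and the exact 95% counting interval as a line. An open triangle marks a library with 0 reads, at the upper end of its interval, and for all 3 genes the highest point is the total RNA library with ADAR1i-124, at 78.8, 8.51 and 1.02 CPM.

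In total RNA, Lce1g and its neighbours Lce1h and Lce1f were higher with ADAR1i-124 than with DMSO. Lce1g had 12 reads with DMSO, 1388 with ADAR1i-124 and 99 with 5-AZA-CdR. These were 0.705 CPM (0.364 to 1.23), 78.8 CPM (74.7 to 83.0) and 2.86 CPM (2.33 to 3.49). The 3 intervals did not overlap, and ADAR1i-124 was far above both. The ratio of ADAR1i-124 to DMSO was 112 (63.7 to 217), the log2 difference was 6.04, and it was the 2nd highest of 13693 genes, while the median gene differed by -0.09. Of all genes over the minimum, 1.88% were at least 4-fold higher with ADAR1i-124. Lce1g and Lce1h, both under 1 CPM with DMSO, reached the minimum only through the ADAR1i-124 library of the comparison that chose the cluster, so their place among these genes is no result about the members. Since cells were sequenced in bulk, more cells with the transcript and more transcript per cell cannot be told apart.

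Lce1h, the next gene of the cluster beyond Lce1g, followed at a lower level. It had 4 reads with DMSO, 150 with ADAR1i-124 and 40 with 5-AZA-CdR, or 0.235, 8.51 and 1.16 CPM. Its ratio of ADAR1i-124 to DMSO was 36.2 (13.9 to 135), a log2 difference of 3.62 and the 32nd highest. Lce1f, the nearest member on the other side, had 0, 18 and 1 reads, and was at least 5.79-fold higher with ADAR1i-124 than the floor of 3 counts in the DMSO library. The members with 3 or more reads there were thus Lce1f, Lce1g and Lce1h, which are neighbouring members, and Lce1a2 with its 4 reads.

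With 5-AZA-CdR, Lce1g and Lce1h were also higher than with DMSO, for Lce1g by less than with ADAR1i-124. The ratio for Lce1g was 4.06 (2.22 to 8.12) and for Lce1h 4.92 (1.78 to 18.9), with log2 differences of 1.48 and 1.17. Neither member was past the 4-fold line, which 5.98% of genes were in the upward direction, and Lce1h was under the minimum mean. Both comparisons share the DMSO library.

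In J2 precipitates Lce1g was low with DMSO and at like levels with either agent. It had 3 reads in the DMSO library, 67 under ADAR1i-124, 59 under 5-AZA-CdR and 90 in the combination, or 0.246, 4.65, 4.44 and 7.65 CPM. The intervals of the 3 treated libraries lay above that of DMSO. ADAR1i-124 was 18.9-fold (6.20 to 94.0) above DMSO, a log2 difference of 2.79 and the 6th highest of 13522 genes, of which 0.821% were at least 4-fold higher. This comparison too had chosen the cluster. With 5-AZA-CdR the ratio was 18.0 (5.87 to 89.9), where 3.02% of genes were at least 4-fold higher. In both comparisons Lce1g reached the minimum only through the treated library, so neither its rank nor its place beside these shares is a result about the members. Both ratios rest on the 3 reads of the J2 DMSO library, and neither passed the 4-fold line with a pseudocount of 2 CPM. The combination was 1.72-fold (1.23 to 2.44) above 5-AZA-CdR and 1.64-fold (1.18 to 2.29) above ADAR1i-124, both within the 4-fold line.

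Lce1h did not follow Lce1g in every J2 library. Its reads numbered 2 in the DMSO library, 22 under ADAR1i-124, 2 under 5-AZA-CdR and 5 in the combination. ADAR1i-124 was 9.31-fold (2.29 to 81.7) above DMSO, while 5-AZA-CdR was 0.916-fold (0.0664 to 12.6). The combination was 0.278-fold (0.0823 to 0.752) of ADAR1i-124, the opposite direction to Lce1g. Lce1h stayed under the minimum mean in each of these comparisons.

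In Z22 precipitates Lce1g had 0 reads in the DMSO library, 104 under ADAR1i-124, 116 under 5-AZA-CdR and 137 in the combination, or 0, 7.09, 14.2 and 15.0 CPM. The DMSO library was the only one of the 12 without a read of Lce1g. Against its floor of 3 counts, Lce1g was at least 20.6-fold higher with ADAR1i-124 and at least 41.3-fold higher with 5-AZA-CdR. These libraries differ across all genes: the median gene was higher by 0.81 and 1.06 on the log2 scale, and 13.2% of genes were at least 4-fold higher with ADAR1i-124 and 20%, or 2737 of 13716, with 5-AZA-CdR. Lce1g reached the minimum only through the treated library in both comparisons, so its place among these genes follows from the filter and is a description. The Gm42418 share of the DMSO library, given above, moved with this shift, and its part in the values of Lce1g was not tested. The combination was 1.05-fold (0.818 to 1.36) of 5-AZA-CdR and 2.11-fold (1.62 to 2.75) of ADAR1i-124. Lce1h had 0, 16, 8 and 4 reads in the same order, and its intervals overlapped between all 3 treated libraries.

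Lce1g was lower in J2 than in total RNA with ADAR1i-124. The J2 library of ADAR1i-124 held 16.9-fold (13.2 to 22) less Lce1g, in CPM, than total RNA of the same treatment, 4.65 against 78.8 CPM. For Lce1h the J2 level was 5.57-fold (3.55 to 9.16) lower. Both were past the 4-fold line, which 2.39% of genes were in that direction, but Lce1h only narrowly: under 3 other scalings and with a pseudocount of 2 CPM only 1 of the 2 members was past it. Both libraries of this comparison had been used to choose the cluster, so the place of the members beside this share is a description. With 5-AZA-CdR, Lce1g in J2 was instead 1.55-fold (1.10 to 2.16) above total RNA, and the intervals of the ratios under the 2 agents did not overlap. With DMSO, Lce1g had 3 reads in J2 and 12 in total RNA, a ratio of 0.349 (0.0632 to 1.29), whose interval overlapped that of ADAR1i-124, 0.0591 (0.0455 to 0.0755), so a lower level in J2 was not shown to be particular to ADAR1i-124. Lce1h with 5-AZA-CdR was 7.69-fold (1.99 to 65.7) lower in J2 than in total RNA, on 2 and 40 reads. Total RNA and J2 libraries of 1 treatment also differed in the summed Y-linked genes named below. With ADAR1i-124 these had 115 CPM in total RNA and 3.13 in J2, with DMSO 6.88 and 63.4, and with 5-AZA-CdR 106 and 3.68. A difference of J2 from total RNA may thus hold more than the antibody, which was not tested.

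The IgG library, the control for precipitation without a specific antibody, held 96 reads of Lce1g, or 6.26 CPM (5.07 to 7.65). This was above all 3 DMSO libraries: J2 with DMSO was 25.4-fold (8.45 to 126) lower and Z22 with DMSO at least 18.2-fold lower. Of all genes, 0.670% were at least 4-fold lower in the former comparison and 20%, or 2506 of 12558, in the latter. Lce1g reached the minimum in both only through the IgG library. The precipitates of treated cells lay between 0.708-fold and 2.39-fold of IgG. J2 with ADAR1i-124 was 0.743-fold (0.536 to 1.03) of it, J2 with 5-AZA-CdR 0.708-fold (0.503 to 0.990) and J2 with the combination 1.22-fold (0.905 to 1.64). Z22 with ADAR1i-124 was 1.13-fold (0.850 to 1.51), while Z22 with 5-AZA-CdR was 2.27-fold (1.71 to 3.0) and with the combination 2.39-fold (1.83 to 3.14). No J2 or Z22 library of treated cells was past 4-fold above IgG. Because the treatment behind the IgG library is not given, a difference from it holds antibody and treatment together, and these cannot be told apart.

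Between the antibodies, Lce1g was higher in Z22 than in J2 in the 3 treated pairs. The ratio was 1.52 (1.11 to 2.10) with ADAR1i-124, 3.20 (2.32 to 4.46) with 5-AZA-CdR and 1.96 (1.49 to 2.58) with the combination, while the DMSO libraries had 0 and 3 reads. In edgeR's quasi-likelihood test with the treatment as a block, added after the values had been seen, the log2 difference over the 4 pairs was 0.95, with a Benjamini-Hochberg adjusted p of 0.193. Of 13898 genes, 0 (0%) were higher at an adjusted p under 0.05 and 3062 differed at an unadjusted p under 0.05. Without the DMSO pair the difference was 1.07 with an adjusted p of 0.0479, and 4.32% of genes were called higher, so the call rests on leaving out that pair. Treatments stand in for replicates here, and Lce1g had been selected on J2 libraries of this fit. No other member reached a mean of 1 CPM over these libraries.

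Ordered by level, Lce1g was highest in total RNA with ADAR1i-124, 5.26-fold (4.41 to 6.32) above the next library. The Z22 libraries with the combination and with 5-AZA-CdR followed and did not differ beyond counting error. Next came J2 with the combination, Z22 with ADAR1i-124, IgG, J2 with ADAR1i-124 and J2 with 5-AZA-CdR, in which no neighbours differed beyond counting error. Total RNA with 5-AZA-CdR was 1.55-fold below the last of these and 4.06-fold above total RNA with DMSO. The 3 DMSO libraries were the lowest.

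Lce1h made up a different share of the reads of Lce1g and Lce1h together in different libraries, a measure chosen after the values had been seen. In total RNA the share was 9.75% (8.32 to 11.3) with ADAR1i-124 and 28.8% (21.4 to 37.1) with 5-AZA-CdR, and the intervals did not overlap. In J2 the order was the other way, with 24.7% (16.2 to 35.0) for ADAR1i-124 and 3.28% for 5-AZA-CdR. The Z22 shares were 13.3%, 6.45% and 2.84% for ADAR1i-124, 5-AZA-CdR and the combination, and IgG stood at 6.80%. The 16 and 5 reads of the total and J2 DMSO libraries leave their shares, 25.0% and 40.0%, with wide intervals. The total RNA and J2 libraries with ADAR1i-124 had been used to choose the cluster for high Lce1g, which favours a low share of Lce1h there. Each share comes from a single library and its interval covers counting error only, so the differences in share are a description.

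**Figure D2:**
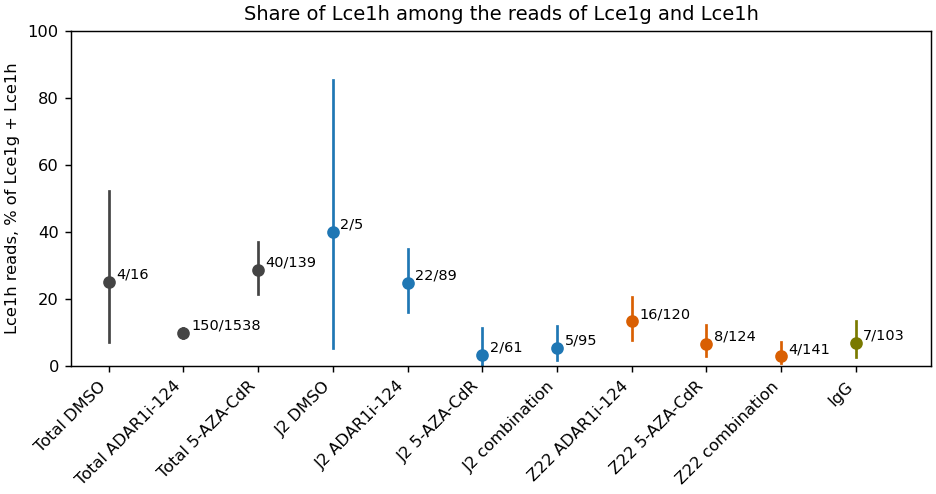
Reads of Lce1h as a percentage of the reads of Lce1g and Lce1h, with the exact 95% binomial interval as a line and the 2 counts beside each point, for the 11 libraries with reads. The share is 9.75% in total RNA with ADAR1i-124 and 28.8% with 5-AZA-CdR, and the order of the 2 agents is opposite in J2.

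Around the cluster, higher total RNA levels with ADAR1i-124 were scattered among genes with few or no reads and genes that differed little. Of the 47 annotated genes with a start within 350 kb of that of Lce1g, 9 had 3 or more reads in total RNA with DMSO and 12 with ADAR1i-124. The flanking genes Lce6a and Lce1j had 0 reads in all 3 total RNA libraries. Kprp, a keratinocyte proline-rich protein gene 74.9 kb from Lce1g, had 0.882 CPM with DMSO, 9.76 with ADAR1i-124 and 0.897 with 5-AZA-CdR. Crct1, 263 kb away, had 0.470, 4.31 and 2.40 CPM. In J2 the log2 differences of ADAR1i-124 from DMSO were -0.37 for Kprp and -0.35 for Crct1, on few reads. In Z22 they were 1.31 and -0.54. Involucrin (Ivl), an early scaffold protein of the envelope on the other side of the cluster, went with 5-AZA-CdR instead, at 0.176, 0.114 and 2.92 CPM. Inside the cluster, the processed pseudogene Gm4202 had 21.2, 27.6 and 22.5 CPM, values that are uncertain because a pseudogene can share reads with its parent gene. Lce6a and Lce1j were named for their position, Kprp and Crct1 for their change with ADAR1i-124, and Ivl and Gm4202 after their values were seen. The window was set after values had been seen.

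**Figure D3:**
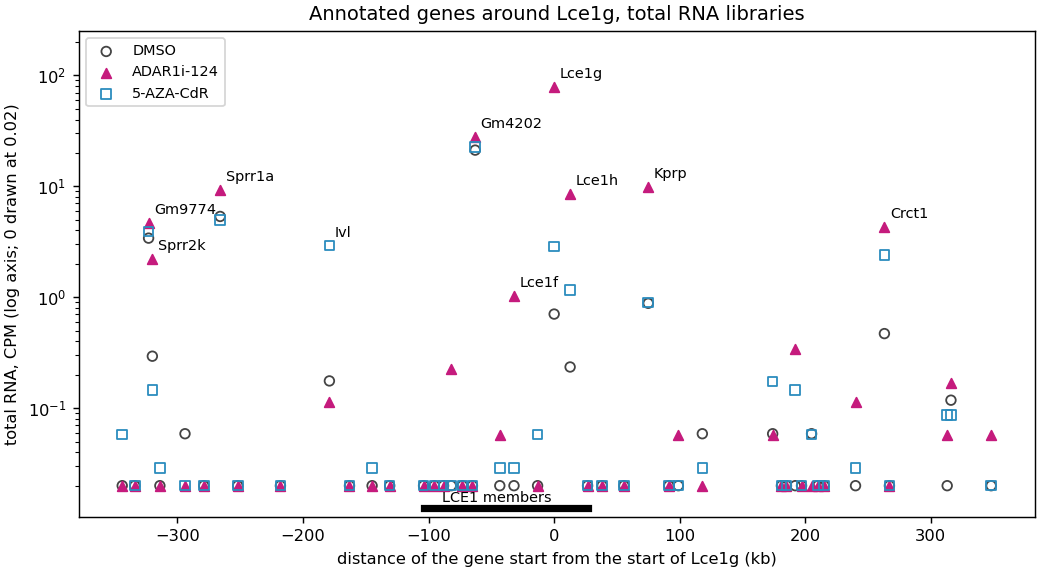
CPM in the 3 total RNA libraries, on a log axis with 0 drawn at 0.02, of the annotated genes within 350 kb of Lce1g against the distance of their start from that of Lce1g in kb. Circles stand for DMSO, triangles for ADAR1i-124 and squares for 5-AZA-CdR, and the bar marks the extent of the LCE1 members. Within each library most genes lie at 0, and Lce1g reaches 78.8 CPM with ADAR1i-124.

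The other late cornified envelope genes, 11 in number, had none over the minimum mean in the comparisons of either agent with DMSO. Of 16 small proline-rich genes, whose proteins bridge other envelope proteins, 3 were over the minimum in total RNA with ADAR1i-124 and 1 was at least 4-fold higher, beside 1.88% of all genes. That gene was Sprr2h, at 0 CPM with DMSO and 2.78 with ADAR1i-124, and Sprr2k and Sprr1a differed by 1.77 and 0.74 on the log2 scale. Of the 14 other envelope precursors only Kprp and Crct1 were over the minimum, with log2 differences of 2.89 and 2.31. Kprp, Crct1, Sprr2h, Sprr2k and the lipoxygenase gene Aloxe3 given with the next list were each under 1 CPM with DMSO and reached the minimum only through the ADAR1i-124 library, so their counts as calls follow from the filter and are a description. Of 13 S100 genes of the complex, which encode small calcium-binding proteins, 8 were over the minimum and 1 was past the line upward, beside 1.88% of all genes, namely S100a7a with 1.35 CPM against 20.9 CPM. The median log2 difference of those 8 was -0.04, and S100a4, S100a3 and S100a13 differed by -1.02, -0.50 and -0.45.

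Genes of keratinocytes outside the complex gave a mixed picture. Of 19 late differentiation genes, 4 were over the minimum in total RNA with ADAR1i-124 and 1 was past the line upward, beside 1.88% of all genes, namely the epidermal lipoxygenase Aloxe3 with 0.118 CPM against 9.65 CPM. Cdsn, Klf4 and Krt10 differed by 0.78, 0.16 and -0.57. The summed level of the list moved upward in total RNA, from 16.7 CPM with DMSO to 29.7 with ADAR1i-124, and downward in J2, from 43.8 to 9.59, and in Z22, from 98.4 to 14, whereas Lce1g was higher in all 3. Cdsn and Klf4 carried most of that sum: the other 17 genes together, set apart after the values had been seen, had 2.53 and 12.2 CPM in total RNA, 3.86 and 4.10 in J2 and 6.42 and 5.52 in Z22 with DMSO and ADAR1i-124. Basal keratinocyte markers were near 0: the summed level of 6 genes ran from 0 to 2.21 CPM over the libraries, and none was over the minimum. The defining melanocyte genes were nearly absent too, since Tyr and Tyrp1 had 0 reads in every library and Sox10 had at most 0.115 CPM. The summed level of the 8 melanocyte lineage markers, 9.89 to 33.8 CPM, came mostly from Mitf, with 22.2 CPM in total RNA with DMSO and 20.3 with ADAR1i-124.

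AP-1 factors bind promoters of many genes of the complex. Of 7 AP-1 subunit genes, 4 were at least 4-fold higher with ADAR1i-124 in total RNA, beside 1.88% of all genes, with a median log2 difference of 2.30. Junb differed by 4.65, Fosl1 by 2.71, Jun by 2.44 and Fosb by 2.30. With 5-AZA-CdR the median was 1.68 and Junb alone was past the line, at 4.23, beside 5.98% of all genes. In J2 with ADAR1i-124, where 0.821% of all genes were past it upward and 2.71% downward, none of the 7 was past it and the median was -0.29, while Lce1g differed by 2.79. In Z22 with ADAR1i-124 0 were past it upward and 2 downward, with a median of -0.24, where 13.2% of all genes were past it upward and 0.945% downward and their median was 0.81.

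Targets of NRF2, the factor of the oxidative stress response, were next. Of 14 genes 4 were past the line in total RNA with ADAR1i-124, beside 1.88% of all genes. Their median was 1.45, and that of all genes -0.09. Hmox1, which encodes the heme-degrading oxygenase, differed by 4.49, Gsta4 by 3.01, Cbr3 by 2.56 and Srxn1 by 2.32. Gsta4 and Cbr3, at 0 and 0.529 CPM with DMSO, reached the minimum only through the ADAR1i-124 library. In J2 0 of 12 were past the line upward, beside 0.821% of all genes, and the median was 0.37. In Z22 6 of 12 were past it and the median was 2.01, beside 13.2% and a median of 0.81 for all genes. Of 16 targets of p53, a factor reported to induce human LCE1 genes, 15 were over the minimum in total RNA with ADAR1i-124, 0 were past the line in either direction, beside 1.88% of all genes upward and 2.05% downward, and the median was 0.07. There Sesn1 differed by -1.75, Phlda3 by 0.90, Trp53inp1 by -0.82 and Aen by 0.78. In J2 0 of 15 were past it upward and 2 downward, beside 0.821% and 2.71% of all genes, and the median was -0.73. In Z22 3 of 15 were past it upward and 1 downward, beside 13.2% and 0.945% of all genes, and the median was 0.81, that of all genes.

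**Figure D4:**
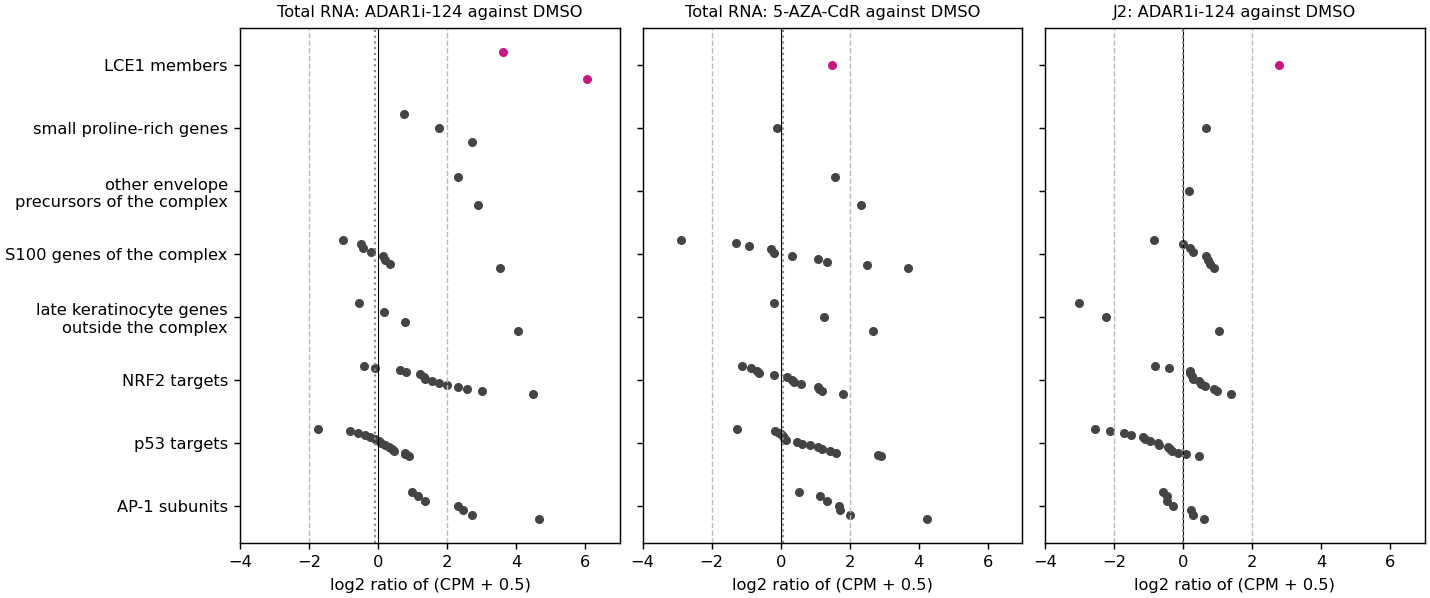
Each point is a gene of the lists named at the left, members included, that reached a mean of 1 CPM over the compared libraries, at its log2 ratio of (CPM + 0.5), for ADAR1i-124 against DMSO in total RNA, 5-AZA-CdR against DMSO in total RNA and ADAR1i-124 against DMSO in J2. Dashed lines mark 4-fold and the dotted line the median of all genes; Lce1g lies at 6.04 and Lce1h at 3.62 in the first panel, and genes outside the lists are not drawn.

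The libraries also differed in a way the treatments do not name. The summed level of the Y-linked genes Ddx3y, Eif2s3y, Kdm5d, Uty and Uba1y, looked at after values had been seen, was 6.88 CPM in total RNA with DMSO, 115 with ADAR1i-124 and 106 with 5-AZA-CdR. In J2 it was 63.4 with DMSO and 3.13 with ADAR1i-124, and in Z22 33.0 and 15.8. With 5-AZA-CdR it was 3.68 in J2 and 0.245 in Z22, with the combination 11.2 and 8.09, and in IgG 24.3. In total RNA both Lce1g and this sum were higher with ADAR1i-124 than with DMSO, and in J2 and Z22 the sum was lower. Its part in the results was not tested.

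The genes whose pattern was most like that of Lce1g were ranked by Pearson correlation of log2(CPM + 0.5) over the 12 libraries, for the 13985 genes whose mean reached 1 CPM. They were Zfp747 (0.948), Mob3a (0.906), Gm20658 (0.906), Tprn (0.903) and Tmod2 (0.893). None lies on chromosome 3. Gm20658 had 2, 123 and 29 reads in total RNA with DMSO, ADAR1i-124 and 5-AZA-CdR and 1, 15 and 7 in J2. Within the cluster the correlation with Lce1g was 0.77 for Lce1h and 0.63 for Lce1f. The libraries share treatments and depth, so these are descriptions, and by rank correlation 0 of the 5 genes were among the 5 most alike. Zfp747 and Tprn were among the 5 most alike under none of the 3 other scalings either.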

How the data were processed

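The authors mapped paired reads of ribosome-depleted libraries with STAR in snakePipes to mm10 (GRCm38). The deposited table holds their raw counts of reads per gene, not normalized. The counting tool and strand setting are not given in the sources used here. Identifiers were matched to GENCODE M21, which named 54495 of 54532 genes and held all 10 members in the same version. Counts were divided by the library total, and log2 ratios used a pseudocount of 0.5 CPM. Intervals are exact Poisson or Clopper-Pearson intervals at 95%. Python 3.11.15, pandas 2.3.3 and scipy 1.17.1 were used, with edgeR 4.0.16 and DESeq2 1.42.0 for scaling factors, edgeR also for the added test of Z22 against J2 with the treatment as a block. The calculations were tested on simulated data: the fold calculation missed the first criterion for the share of changed genes recovered, which was then limited to genes clear of the line and of the minimum, and met that.

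The members and the gene lists were chosen with earlier results of these data known. Named were all members, at most 4 genes of each list with the largest change with ADAR1i-124 in total RNA among those over the minimum, the 5 genes most like Lce1g, and the genes next to the cluster. Ivl, Krt and melanocyte genes, Gm4202, Gm42418, the Y-linked genes, the share of Lce1h and the motifs were chosen after their values were seen. Library totals, TMM factors, size factors, totals without the 20 top genes, pseudocounts of 0.1 and 2 CPM, no minimum and a 2-fold line were compared. The total RNA library of the combination was left out.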

Additional observations from a re-analysis of the deposited data

How the results depend on the processing

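With 1 library per condition, the depth and the absence of replicates set the limits, and the ratios with DMSO rest on 12, 3 and 0 reads of Lce1g. No paired analysis was possible because each condition has a single library, except for Z22 against J2, where treatments form the pairs: there the edgeR log2 difference of Lce1g was 0.95, 0.87 with library totals and 1.07 without the DMSO pair, and the adjusted p was 0.193, 0.456 and 0.0479.

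Of 250 log2 differences of members recomputed under 3 scalings and 2 pseudocounts, 232 moved by less than the larger finite side of their counting interval, 18 by more, and 0 changed direction. Of 350 counts of members past the line, 12 moved. With a pseudocount of 2 CPM the count of higher members fell from 1 to 0 in J2 for ADAR1i-124 and for 5-AZA-CdR against DMSO, as did the count of lower members in J2 against IgG with DMSO. At the 2-fold line it rose from 0 to 1 for total RNA with 5-AZA-CdR, for Z22 with the combination against ADAR1i-124, for Z22 against IgG with 5-AZA-CdR and with the combination, and for Z22 against J2 with 5-AZA-CdR. For J2 against total RNA with ADAR1i-124, the count fell from 2 to 1 under TMM factors, size factors, totals without the 20 top genes and a pseudocount of 2 CPM. The summed level of the members without Lce1g was 0.235, 9.82 and 1.21 CPM in total RNA with DMSO, ADAR1i-124 and 5-AZA-CdR, 1.60, 0.226 and 0.425 in J2 with ADAR1i-124, 5-AZA-CdR and the combination, 1.16, 1.10 and 0.984 in Z22 in the same order, and 0.522 in IgG. Of the 5 genes most like Lce1g, 3 were shared under TMM factors, 2 under size factors, 3 without the top genes and 0 by Spearman correlation. Other scalings brought the median gene of Z22 with ADAR1i-124 against DMSO from 0.81 to between -0.02 and 0.33. Apart from these constructions, the cause was not tested.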
